A study of Pseudopodoces humilis with 2 samples.

Results

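Microexons are the shortest exons of spliced transcripts, and those assembled from liver and muscle RNA of the ground tit (Pseudopodoces humilis), a songbird of the Tibetan plateau, are described here. The members are internal exons of 3 to 30 bases, that is, exons with another exon of the same transcript on both sides, counted once per scaffold, start, end and strand. There were 1007 of them among 125681 distinct internal exons (0.801%), on 845 loci and 459 scaffolds. The series holds 1 total-RNA sample of liver and 1 of muscle, and its labels give no age, sex or number of birds. Transcripts were assembled in 1 set for liver and in 2 sets for the muscle sample, called muscle-2 and muscle-3 after their names, and the labels do not say how the muscle sets differ. With 1 sample per tissue the tissues were compared without a test, and values of both muscle sets are given where the files hold them. The deposited expression values have 1 muscle column.

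An exon is normally recognised as a unit between its flanking splice sites, and a very short exon leaves little room for the factors that bind on both sides of it. In mammals many microexons are included in neurons and some in muscle, under splicing factors such as SRRM4, PTBP1 and RBFOX proteins, and skipped in other tissues. A microexon whose length is a multiple of 3 can be added or skipped without shifting the reading frame, so that it inserts or removes a few amino acids, often at the surface of a protein. A single cassette exon is one that is either included or skipped as a whole between the same neighbouring exons.

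The files held 23614 transcripts for liver, 31092 for muscle-2 and 27092 for muscle-3. The exon rows are called coding in the files, yet in all of these transcripts they began and ended with the transcript itself. They thus hold untranslated parts too, and whether a given microexon is translated is not given. The files pair no exon with a gene name, so marker genes of the tissues were not evaluated. No genome sequence was used here, so no exon sequence is shown. A total of 46313678 reads was inferred for liver from the steps of its deposited expression values, and none could be inferred for muscle. Reads per exon are not given, so the depth behind each exon is unknown.

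The lengths of the microexons stood out by their reading frame. Of 1007 microexons, 560 had a length that is a multiple of 3, which is 55.6% (Wilson 95% interval 52.5 to 58.7). Among all internal exons 39.5% had such a length. A further 219 microexons left a remainder of 1 base and 228 a remainder of 2. Of the 28 lengths from 3 to 30 bases, 10 are multiples of 3 (35.7%). Intervals of shares here cover counting error only, since exons of one transcript are not independent.

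The excess was seen at most single lengths, though not at 6 bases, with 4 exons against 2 of 5 bases and 4 of 7 bases. There were 150 exons of 27 bases, against 46 of 26 bases and 75 of 28 bases. At 24 bases there were 89 exons, against 64 and 59 at the neighbouring lengths of 23 and 25 bases. At 12 bases there were 23, against 2 of 11 bases and 2 of 13 bases. The count at the limit itself was 156 exons of 30 bases, and 107 exons of 31 bases lay just outside. The same saw-tooth continued above 30 bases at a lower height, with 44.5% (43.5 to 45.5) multiples of 3 among 9054 exons of 31 to 60 bases and 39.8% (39.4 to 40.2) among 50181 exons of 61 to 120 bases.

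**Figure D1:**
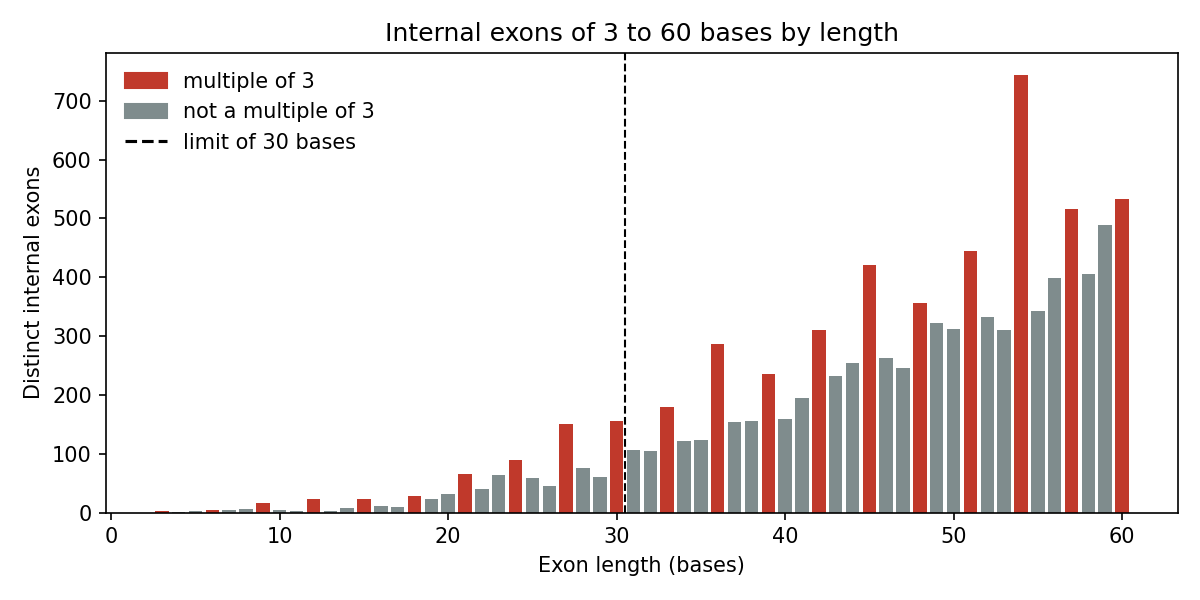
Number of distinct internal exons (vertical axis) at each length from 3 to 60 bases (horizontal axis), in red where the length is a multiple of 3 and in grey elsewhere, with the limit of 30 bases as a dashed line. Red bars stand above both neighbours at lengths such as 12, 24 and 27 bases.

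Very short exons were few. The median microexon had 25 bases (quartiles 21 and 28), against 123 bases for all internal exons. Only 66 microexons had 12 bases or fewer and 82 had 13 to 18, while 313 had 19 to 24 and 546 had 25 to 30. Multiples of 3 made up 71.2% (59.4 to 80.7) of the class of 3 to 12 bases and 63.4% (52.6 to 73.0) of that of 13 to 18. They made up 49.5% (44.0 to 55.0) of the class of 19 to 24 and 56.0% (51.9 to 60.2) of that of 25 to 30. The share was thus highest for the shortest exons, though the intervals of neighbouring classes overlap in part. Among the possible lengths, multiples of 3 are also somewhat more frequent in the class of 3 to 12 bases than in the other classes. A read that reaches past both ends of such a short exon is split at both, and how many such exons were missed is not known.

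The 6 microexons of 5 bases or fewer, named after their lengths were seen, were not all found again. On scaffold 9109 an exon of 3 bases at positions 3063784 to 3063786 (minus strand) was assembled in muscle-2 and muscle-3. The same held for an exon of 5 bases on scaffold 21243, at 1260648 to 1260652 (minus strand). An exon of 4 bases on scaffold 22087, at 214984 to 214987 (plus strand), was found in liver and muscle-2. The other three, on scaffolds 11642 (3 bases, 115876 to 115878), 12906 (3 bases, 24896 to 24898) and 22450 (5 bases, 244610 to 244614), were each found in 1 muscle assembly. None of the 6 was found in all 3 assemblies.

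The shortest microexons found in all 3 assemblies began at 8 bases. These were an exon on scaffold 23084 at 2091380 to 2091387 (minus strand), with no intron that skips it, and an exon on scaffold 194142 at 1018 to 1025 (plus strand), which an intron of liver skipped. They were followed by 3 exons of 12 bases. The first, on scaffold 6564 at 697769 to 697780 (plus strand), was skipped in both muscle assemblies by an intron that joins its neighbouring exons. The others, on scaffold 22187 at 2237 to 2248 (minus strand) and on scaffold 22624 at 1824298 to 1824309 (plus strand), were skipped by no intron of any file.

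Microexons were spanned by an intron more often than other internal exons. An intron of any file on the same strand spanned 288 of the 1007 (28.6%, 25.9 to 31.5), against a background of 6.06% of all internal exons. The share fell with length, from 62.1% (50.1 to 72.9) at 3 to 12 bases over 37.8% (28.1 to 48.6) at 13 to 18 and 29.4% (24.6 to 34.7) at 19 to 24 to 22.7% (19.4 to 26.4) at 25 to 30 bases. It went on falling, to 12.1% (11.5 to 12.8) at 31 to 60 bases and 6.34% (6.13 to 6.56) at 61 to 120. For 172 microexons (17.1%, 14.9 to 19.5, against 3.69% of all internal exons) the intron was a cassette intron, whose ends are the outer ends of the introns beside the exon. For 68 others the spanning intron shared 1 of these outer ends, and for 45 it shared neither.

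**Figure D2:**
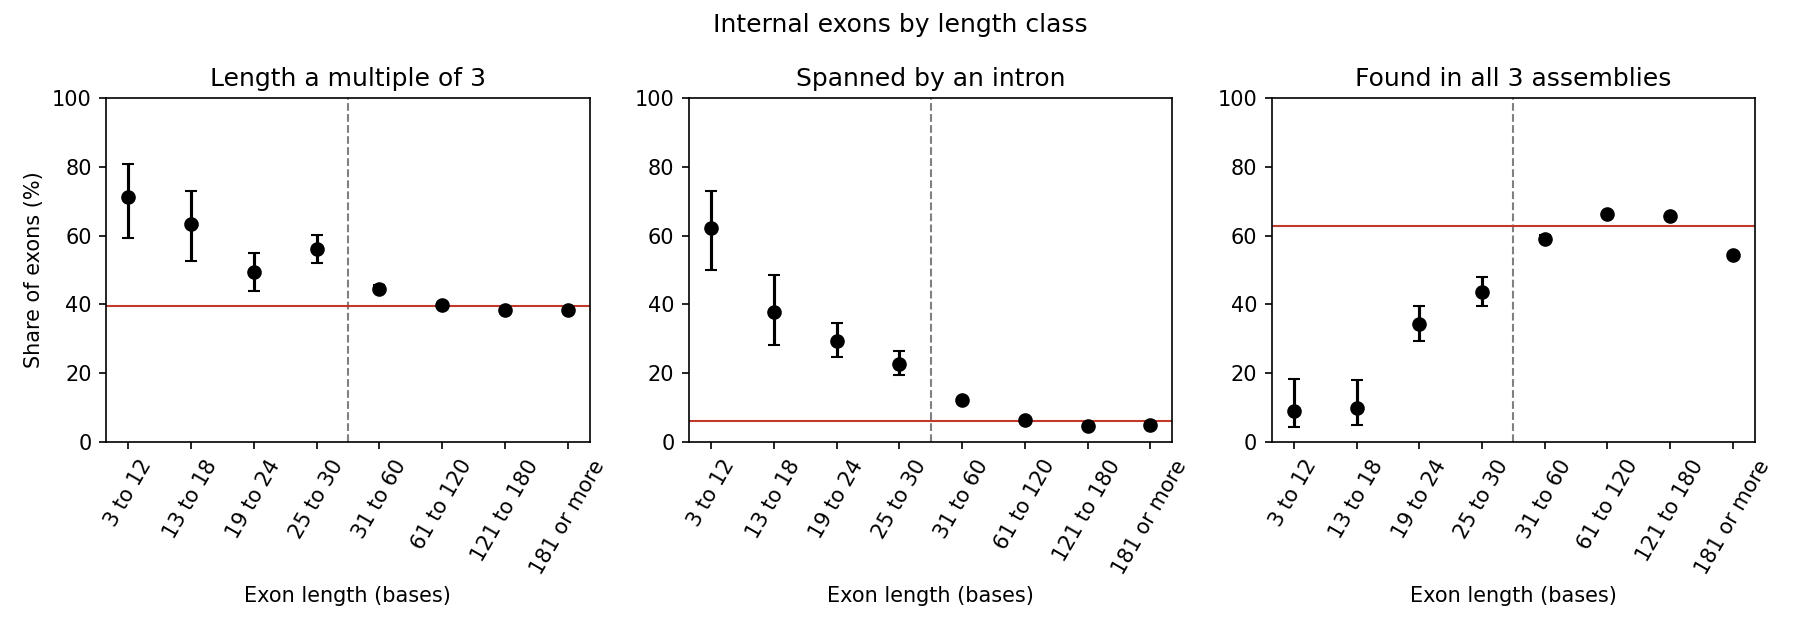
Share of internal exons (vertical axis, %) by length class in bases (horizontal axis) that have a length divisible by 3 (left), are spanned by an intron of any assembly (middle) or are found in all 3 assemblies (right). Points are shares, bars Wilson 95% intervals, the red line all internal exons, and the dashed line the limit of 30 bases; the shortest class is the most often spanned (62.1%) and the least often found in all 3 assemblies (9.09%).

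Frame went together with skipping by a cassette intron. Of the 172 cassette microexons 144 were multiples of 3 (83.7%, 77.5 to 88.5), against 52.0% (50.5 to 53.4) of the 4640 cassette exons of any length. Read the other way, a cassette intron skipped 25.7% (22.3 to 29.5) of the microexons with a length divisible by 3 and 6.26% (4.37 to 8.90) of the others. For all internal exons these shares were 4.86% and 2.93%. Of all 288 spanned microexons, which include the 172, 197 were multiples of 3 (68.4%, 62.8 to 73.5). Of the 719 that no intron spans, 50.5% (46.8 to 54.1) were. Microexons spanned by other introns alone were not counted by frame on their own, so the link is stated for cassette introns only. Both forms could also stand in the same assembly: 58 of the 489 liver microexons, 153 of the 821 of muscle-2 and 104 of the 696 of muscle-3 were included by one transcript and spanned by an intron of another. These are 11.9%, 18.6% and 14.9%, against 2.23%, 3.09% and 3.21% of all internal exons in the same assemblies.

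Most microexons found in all 3 assemblies were not seen to be skipped, and this held still more for exons of any length. Of the 359 found in all 3 assemblies, 300 were spanned by no intron of any file, against 76008 of 79073 internal exons of any length. Of the 300, 48.7% (43.1 to 54.3) were multiples of 3. The same share was 38.5% (38.2 to 38.9) among all internal exons found in all 3 assemblies and not spanned. The 59 that were found in all 3 and also spanned had 37 multiples of 3 (62.7%), against 48.0% of the 3065 internal exons of any length found in all 3 and spanned.

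Over all members, introns beside microexons were somewhat shorter than those beside other exons. Taking the shortest intron on each side, the upstream intron had a median of 641 bases (95% interval of the median 586 to 704, quartiles 260 and 1555), against 794 (788 to 800) for all internal exons. The downstream intron had a median of 648 bases (566 to 724, quartiles 227 and 1655), against 778 (772 to 784). The upstream intron was the longer in 512 of 1007 (50.8%), near the 51.3% of all internal exons, so the sides were alike in this respect. The shorter introns were those of microexons found in 1 assembly, with medians of 504 bases (417 to 604) upstream and 450 (389 to 573) downstream, against 803 and 827 for all internal exons found in 1 assembly. Microexons found in all 3 had 766 (655 to 874) and 698 (595 to 815), against 786 and 763, and these intervals include the values of all internal exons.

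Cassette microexons had longer introns than microexons that no intron spans, above all downstream. Their upstream intron had a median of 965 bases (757 to 1194) and their downstream intron one of 1640 (1187 to 2029). Among cassette exons of any length the medians were 1244 (1191 to 1307) upstream and 1421 (1346 to 1473) downstream. Long introns were thus not particular to cassette microexons, whose upstream median was the lower and whose downstream interval includes the value of all cassette exons. Microexons that no intron spans had 643 (584 to 705) and 610 (535 to 672). The upstream intron was the longer for 68 of the 172 cassette microexons (39.5%), against 47.4% of all cassette exons. A cassette intron can be no shorter than the sum of both flanking introns and the exon, and the median of the 174 found was 2779 bases.

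Very short flanking introns marked a small group. A flanking intron under 70 bases stood beside 36 microexons (3.57%), against 0.485% of all internal exons, and the shortest had 50 bases. Of the 36, 30 were found in 1 assembly only and 0 in all 3, and 12 (33.3%) were multiples of 3. Of the 610 internal exons of any length with such an intron, 228 were found in 1 assembly only and 237 in all 3. Their share of multiples of 3 was not taken. Microexons also shared 1 end with a longer or shorter exon in 243 cases (24.1%, against 16.8% of all internal exons). The other exon could be a first or last exon of a transcript, so not every case need be an alternative splice site. For 21 (2.09%, against 2.08%) the other exon differed by 3 bases. A longer exon held 23 microexons entirely (2.28%, against 0.335%).

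Position and neighbours were less particular. In every transcript that held them, 173 microexons (17.2%) were the second exon from the 5′ end as assembled and 155 (15.4%) the last but one, against 11.3% and 11.1% of all internal exons. Where the neighbouring exon was itself internal, its median length was 103 bases upstream (834 microexons) and 100 downstream (852), against 123 on both sides for all internal exons. Beside exons of 31 to 60 bases the medians were 98.0 bases upstream and 99 downstream, so shorter neighbours were not particular to microexons. Microexons lay equally on the strands, 502 on the plus and 505 on the minus strand.

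Fewer microexons were assembled in liver than in muscle. Of the 1007, 489 were found in liver (48.6%, 45.5 to 51.6), 821 in muscle-2 (81.5%, 79.0 to 83.8) and 696 in muscle-3 (69.1%, 66.2 to 71.9). Of all internal exons, 73.1% were found in liver, 89.2% in muscle-2 and 83.5% in muscle-3. All 3 assemblies held 359 microexons (35.7%, 32.8 to 38.7), against 62.9% of all internal exons. Both muscle assemblies without liver held 212 (21.1%, against 14.5%), and liver alone held 61 (6.06%, against 4.68%). Found in a single assembly were 367 (36.4%, against 17.1%), of which 203 were in muscle-2 and 103 in muscle-3.

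The shortest were again the least shared. Only 6 of 66 microexons of 3 to 12 bases (9.09%, 4.23 to 18.4) and 8 of 82 of 13 to 18 bases (9.76%, 5.03 to 18.1) were in all 3 assemblies. The share was 34.2% (29.2 to 39.6) at 19 to 24 bases and 43.6% (39.5 to 47.8) at 25 to 30 bases, and 59.1% (58.1 to 60.1) at 31 to 60 bases. Microexons found in muscle and not in liver were multiples of 3 in 314 of 518 cases (60.6%, 56.3 to 64.7, against 41.6% of all internal exons with this pattern). Those found in both tissues were so in 216 of 428 (50.5%, 45.7 to 55.2, against 38.8%), and those of liver without muscle in 30 of 61 (49.2%, 37.1 to 61.4, against 37.4%). The shares of all internal exons thus stood in the same order. Of the microexons of muscle alone, 62.1% (55.2 to 68.5) of those in muscle-2 only, 55.3% (45.7 to 64.6) of those in muscle-3 only and 61.8% (55.1 to 68.1) of those in both were multiples of 3.

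An exon can be missing because its gene was not assembled, so presence was also counted where the outer splice sites of both flanking introns were in the second assembly. Of the muscle-2 microexons 493 had these sites in liver, and 403 of them were found there (81.7%, 78.1 to 84.9). In muscle-3 the sites of 637 were present and 567 were found (89.0%, 86.3 to 91.2). From muscle-3, 378 of 442 were found in liver (85.5%, 81.9 to 88.5) and 568 of 603 in muscle-2 (94.2%, 92.0 to 95.8). From liver, 403 of 417 were found in muscle-2 (96.6%, 94.4 to 98.0) and 378 of 396 in muscle-3 (95.5%, 92.9 to 97.1). For all internal exons these shares lay between 97.6% and 98.1% in all 6 directions. Microexons of either muscle assembly were thus found less often in liver than in the other muscle assembly. The intervals cover counting error over exons only, and each share is taken over its own set of exons. With 1 sample per tissue, a difference between tissues was not tested.

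Among microexons with both outer splice sites in the second assembly, most of the missing ones were skipped. This does not hold for all missing microexons. Of all 821 muscle-2 microexons, 406 were found in liver, and 493 had both outer sites there. Most of those missing from liver thus lacked such a site in the liver assembly, and skipping could not be counted for them in this way. Of the muscle-2 microexons with their outer splice sites in liver, 71 of 493 (14.4%, 11.6 to 17.8) were absent from liver and spanned by a liver intron, against 45 of 637 (7.06%, 5.32 to 9.32) toward muscle-3. From muscle-3, 55 of 442 (12.4%, 9.69 to 15.8) were skipped in liver, against 20 of 603 (3.32%, 2.16 to 5.07) in muscle-2. From liver, 13 of 417 (3.12%, 1.83 to 5.26) were skipped in muscle-2 and 14 of 396 (3.54%, 2.12 to 5.85) in muscle-3. Of all internal exons, 0.868% from muscle-2 and 0.839% from muscle-3 were skipped in liver. Between the muscle assemblies, 0.622% were skipped from muscle-2 to muscle-3 and 0.509% the other way. From liver, 0.462% were skipped in muscle-2 and 0.479% in muscle-3. Exons of any length were thus also skipped most often in liver, at a lower level.

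Skipping in liver was more frequent for microexons with a length divisible by 3 than for other lengths. Of the multiples of 3, 22.4% (17.9 to 27.6) of the muscle-2 ones and 19.8% (15.3 to 25.3) of the muscle-3 ones were skipped in liver. Microexons of other lengths were skipped in liver in 9 of 216 (4.17%, 2.21 to 7.73) and 7 of 200 cases. Length mattered as well: from muscle-2, 61.5% (49.4 to 72.4) of the microexons of 3 to 20 bases and 84.8% (81.1 to 87.9) of those of 21 to 30 bases were found in liver, against 70.2% (59.8 to 79.0) and 91.9% (89.3 to 93.9) in muscle-3. The class of 3 to 20 bases was skipped in liver at 29.2% (19.6 to 41.2) from muscle-2 and 23.8% (13.5 to 38.5) from muscle-3, and between the muscle assemblies in 17 of 84 cases (20.2%) from muscle-2 and 8 of 72 (11.1%) from muscle-3. Between the muscle assemblies the multiples of 3 were skipped in 10.7% (7.92 to 14.3) from muscle-2 to muscle-3 and 4.48% (2.73 to 7.26) the other way. Other lengths were skipped there in 2.21% (1.01 to 4.73) and 1.87% (0.799 to 4.29). From liver, multiples of 3 were skipped in 4.63% in muscle-2 and 5.37% in muscle-3, and other lengths in 1.49% and 1.57%. Among microexons, multiples of 3 were thus skipped more often in every direction, not in liver alone. The intervals overlap from liver and from muscle-3 to muscle-2. Longer exons were not split by frame in this count, so the shares by frame have no background. Exons of 31 to 60 bases were skipped in liver in 2.75% from muscle-2 and 2.67% from muscle-3. Between the muscle assemblies it was 1.48% from muscle-2 and 1.17% from muscle-3, and from liver 1.02% in muscle-2 and 0.993% in muscle-3. The assemblies differ in size, muscle-2 being the largest and liver the smallest, and the part that depth takes in these shares was not tested.

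**Figure D3:**
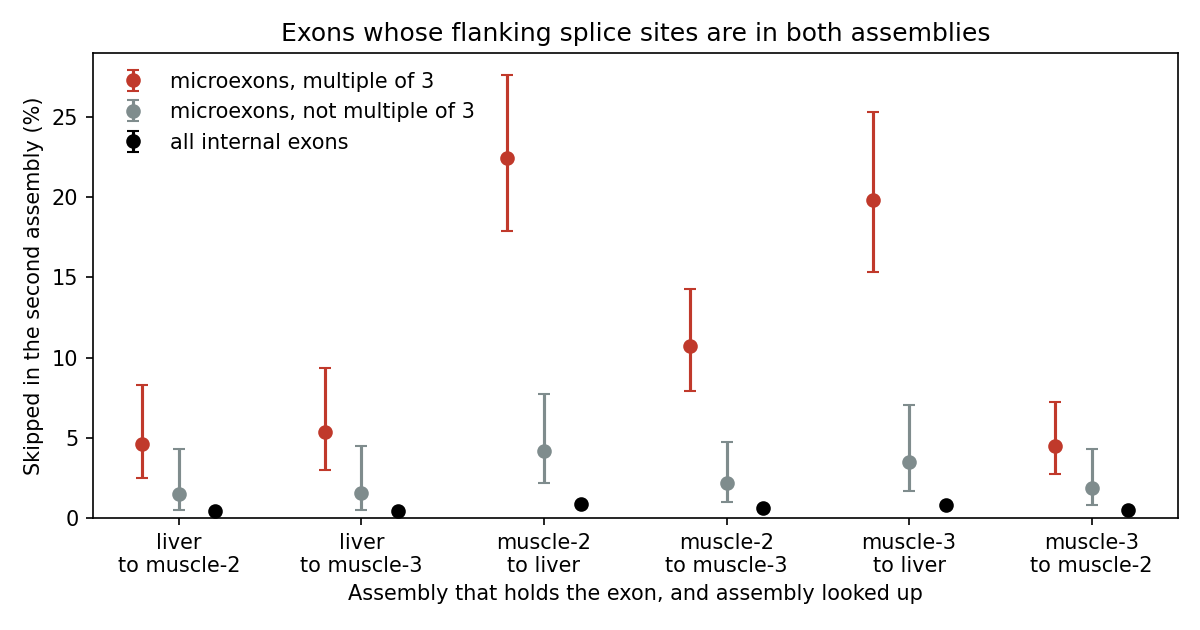
Share of exons (vertical axis, %) that the second assembly skips, for each pair of assemblies (horizontal axis), among exons whose outer flanking splice sites are in both. Points are shares and bars Wilson 95% intervals, for microexons with a length divisible by 3 (red), other microexons (grey) and all internal exons (black); the red points from muscle-2 and muscle-3 to liver, at 22.4% and 19.8%, are the highest.

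A stricter count took microexons found in both muscle assemblies, absent from liver and spanned by a liver intron. There were 49 (4.87%, 3.70 to 6.37), against 0.416% of all internal exons, each on a locus of its own. They made up 23.1% of the 212 microexons found in both muscle assemblies and not in liver, against 2.87% for internal exons of any length with that presence. Their median length was 24 bases, and 41 of the 49 (83.7%, 71.0 to 91.5) were multiples of 3. The share was 63.5% of the 523 internal exons of any length with this pattern. Among the 119 exons of 31 to 60 bases with it, the share was 78.2% (69.9 to 84.6), and this interval overlaps that of the microexons. In 41 of the 49 a muscle assembly held a spanning intron too. The opposite pattern, found in liver, absent from muscle and spanned by introns of both muscle assemblies, held for 16 (1.59%, 0.980 to 2.57, against 0.247%), of which 9 were multiples of 3 (56.2%, against 45.2% of 310 internal exons of any length). The 16 made up 26.2% of the 61 microexons found in liver alone, against 5.27% for internal exons of any length. As a share of the microexons of one tissue, this pattern was thus no rarer than the first with any spanning intron. With cassette introns alone the order was the opposite, at 11.5% of the 61 and 18.9% of the 212. For internal exons of any length these cassette shares were 3.52% and 2.03%. The counts are not on equal terms, since one asks for an exon in both muscle assemblies and the other for a spanning intron in both.

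With cassette introns alone the counts were 40 and 7. Of the 40, 36 were multiples of 3 (90.0%, against 65.0% for exons of any length and 78.3% for those of 31 to 60 bases). Of the 7, 6 were (85.7%, against 46.4% and 64.5%). For both sets of microexons the balance of the forms could be described by the score that Cufflinks gives each transcript. It is 1000 for the leading transcript of a locus and lower for the others. The inclusion score share is the summed score of transcripts with the exon, as a percentage of that sum plus the score of transcripts with the cassette intron, within the same Cufflinks gene. Scores lay between 100 and 1000, so weaker forms are not represented and a share of 0% does not exclude them. Among the 40, the share was 0% in liver by the choice of members, and it ran from 12.7% to 100% in muscle-2 with a median of 54.5%, and from 14.6% to 100% in muscle-3 with a median of 61.5%. In 6 it was 100% in both muscle assemblies, and in 14 it was under 50% in both. The muscle assemblies differed by a median of 5.66 percentage points.

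The first 10 microexons by scaffold number that muscle included and liver skipped show this range. On scaffold 9906 an exon of 27 bases at 1119203 to 1119229 (plus strand), between introns of 3154 and 1849 bases, had a share of 100% in both muscle assemblies. Liver joined its neighbours by an intron from 1116049 to 1121078, which neither muscle assembly held.

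On scaffold 3538 an exon of 21 bases at 901559 to 901579 (minus strand) had shares of 65.7% in muscle-2 and 63.9% in muscle-3. On scaffold 11323 an exon of 21 bases at 977558 to 977578 (plus strand) had 51.6% and 52.5%. Both were included and skipped side by side in muscle at nearly the same share in the 2 assemblies. An exon of 24 bases on scaffold 1652, at 117731 to 117754 (minus strand) after an intron of 12668 bases, had 24.4% and 25.5%. An exon of 9 bases on scaffold 3513, at 788548 to 788556 (plus strand), had 22.8% and 25.8%. The lowest of the 10 was an exon of 25 bases on scaffold 3561, at 2493448 to 2493472 (minus strand), with 12.7% and 14.6%.

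The muscle assemblies differed more at 4 others. An exon of 24 bases on scaffold 2068, at 206883 to 206906 (plus strand), had 52.8% in muscle-2 and 100% in muscle-3. An exon of 24 bases on scaffold 5818, at 567996 to 568019 (minus strand), had 100% and 84.7%. An exon of 29 bases on scaffold 11824, at 324140 to 324168 (minus strand), had 100% and 64.1%. It is 1 of only 2 among the 10, beside that on scaffold 3561, whose length is not a multiple of 3. The last, an exon of 30 bases on scaffold 1155 at 536469 to 536498 (plus strand), had 100% and 75.4%. Liver spanned it by an intron with ends other than those of the muscle-3 cassette intron, and no liver share was taken.

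Other exons of 9 bases with this pattern, singled out after their values were seen, were found on 2 scaffolds. On scaffold 14076, at 2693632 to 2693640 (plus strand), the share was 100% in both muscle assemblies, and the liver intron ran from 2693295 to 2694064. On scaffold 22350, at 40834 to 40842 (minus strand), it was 69.5% in muscle-2 and 49.6% in muscle-3, and all 3 assemblies held the skipping intron. A length of 9 bases corresponds to 3 codons where it is translated.

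In the opposite direction, the first 10 by scaffold number held 5 with a cassette intron. An exon of 12 bases on scaffold 9906, at 1230434 to 1230445 (minus strand), had a share of 100% in liver and 0% in both muscle assemblies. So did an exon of 30 bases on scaffold 15230, at 2026530 to 2026559 (plus strand). Scaffold 9906 thus held both a muscle-included and a liver-included microexon, on opposite strands.

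In the other 3 liver also skipped the exon. On scaffold 15335 an exon of 18 bases at 966511 to 966528 (minus strand) had 45.2% in liver. On scaffold 9530 an exon of 21 bases at 1140979 to 1140999 (minus strand) had 31.8%. On scaffold 20604 an exon of 29 bases at 1987014 to 1987042 (minus strand) had 13.4%. The 5 without a cassette intron, of 20 to 25 bases on scaffolds 9530, 9738, 13612 (2 exons) and 17683, were spanned by introns with other ends, and no share was taken.

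Over all cassette microexons, 128 of 172 had a share in each assembly. The median share was 0% in liver, 49.9% in muscle-2 and 41.5% in muscle-3, against 62.7%, 66.6% and 68.1% for 3135 cassette exons of any length. For 537 cassette exons of 31 to 60 bases the medians were 41.8%, 60.5% and 59.6%. Liver had the lowest median in each of these sets. The share was 0% for 75 microexons in liver, 18 in muscle-2 and 39 in muscle-3, against 879, 540 and 569 of the 3135 cassette exons of any length, among which liver also had the most. It was higher in both muscle assemblies than in liver for 57 (44.5%, against 33.0% of cassette exons of any length) and lower in both for 18 (14.1%, against 18.3%). Among the 57 are the 40 cassette microexons above, found in both muscle assemblies and skipped in liver, whose liver share was 0% by choice. Among the 18 are the 7 of the opposite pattern, so these counts are not independent of that selection. Exons could enter from either muscle assembly, and liver has fewer assemblies, so the choice of members favours a liver share of 0%. This holds for cassette exons of any length too. A gap of 50 points or more from liver to both muscle assemblies was found for 27 (21.1%, 14.9 to 29.0, against 6.38%), and one in the opposite direction for 7 (5.47%, 2.67 to 10.9, against 2.84%). For exons of 31 to 60 bases these shares were 8.94% (6.81 to 11.7) and 2.98% (1.84 to 4.78). The muscle assemblies lay 50 points or more apart for 12 microexons (9.38%, 5.44 to 15.7), against 314 of the 3135 cassette exons of any length. The median gap was 16.9 points between the muscle assemblies, 29.9 between liver and muscle-2 and 26.4 between liver and muscle-3.

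**Figure D4:**
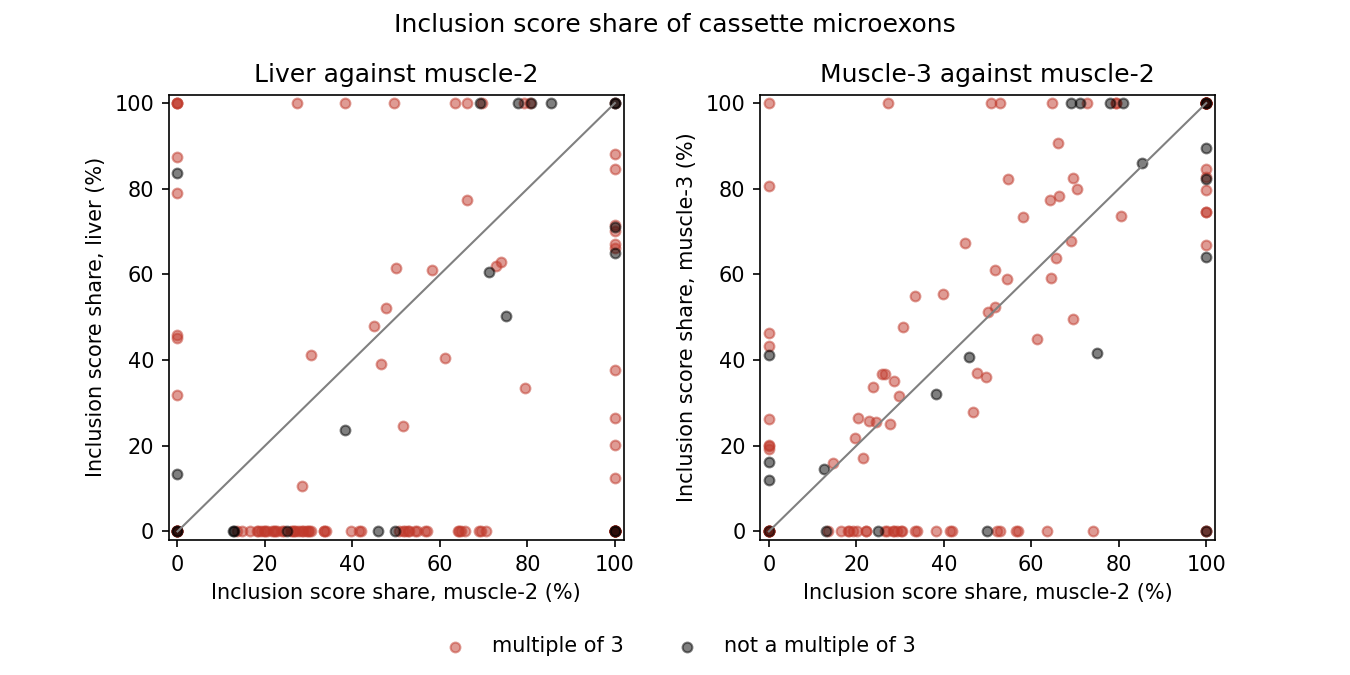
Inclusion score share (%) of the 128 cassette microexons with a share in each assembly, liver (left) or muscle-3 (right) on the vertical axis against muscle-2 on the horizontal axis, 1 point per exon, red where the length is a multiple of 3. The left panel has its largest group along a liver share of 0%, where 75 of the microexons stand, and the right panel follows the diagonal more closely.

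The first 10 cassette microexons by scaffold number among those found in all 3 assemblies were included in liver at 23.7% to 100%. Of these, 4 were skipped in liver alone, with a share of 100% in both muscle assemblies. On scaffold 4763 an exon of 21 bases at 2166096 to 2166116 (minus strand) had 37.7% in liver. On scaffold 5148 an exon of 21 bases at 36461 to 36481 (minus strand) had 66.2%. On scaffold 8703 an exon of 28 bases at 96543 to 96570 (plus strand), between introns of 7933 and 6260 bases, had 71.0%, and on scaffold 315 an exon of 24 bases at 446279 to 446302 (plus strand) had 71.5%. Larger gaps stood outside the first 10, as on scaffold 22706, singled out after its values were seen, where an exon of 27 bases at 1497205 to 1497231 (plus strand) had 12.4% in liver and 100% in both muscle assemblies.

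The reverse was seen for the exon of 12 bases on scaffold 6564 described above, with 100% in liver, 80.6% in muscle-2 and 73.7% in muscle-3. An exon of 25 bases on scaffold 1438, at 373251 to 373275 (plus strand), had 100%, 85.3% and 85.9%. An exon of 28 bases on scaffold 5791, at 266844 to 266871 (plus strand), was skipped in muscle-2 alone, at 80.9%. The muscle assemblies lay on the same side of liver for the exons on scaffolds 6564 and 1438.

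Skipped in all 3 assemblies were the other three. An exon of 28 bases on scaffold 1784, at 2040507 to 2040534 (minus strand), had 23.7% in liver, 38.2% in muscle-2 and 32.1% in muscle-3. An exon of 30 bases on scaffold 2701, at 953986 to 954015 (plus strand), had 47.9%, 44.9% and 67.3%. An exon of 24 bases on scaffold 9906, at 1724197 to 1724220 (plus strand), had 39.0%, 46.6% and 27.8%. For the last pair the muscle assemblies lay on either side of liver, so the tissues did not differ beyond the spread between the muscle assemblies.

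Microexons were mostly alone in their locus. Of the 845 loci, which are 6.79% of the 12448 spliced loci with an internal exon, 735 held 1 microexon, 89 held 2 and 21 held 3 or more. Transcripts told the same: 2397 of 2658 with a microexon held 1. There were 44 pairs of microexons that follow each other directly in a transcript, with a median intron of 315 bases between them. In 22 pairs both lengths were multiples of 3, and in 3 pairs neither was while their sum was. In 15 pairs both exons had the same length. Some pairs stand on the same locus, such as a run of exons of 27 bases on scaffold 21873. Pairs of neighbouring internal exons of any length were not counted, so these counts have no background.

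A few transcripts were built largely of very short exons. The highest number, 8 microexons in 1 transcript, was reached by 7 transcripts on 3 loci, and all 8 were multiples of 3 in each. On scaffold 14132 the muscle-2 transcript ran on the minus strand from 1335623 to 1556272 with 39 exons, its 8 microexons of 18 to 30 bases were found in both muscle assemblies and in no liver transcript, and no intron skipped any of them. All 37 of its internal exons were multiples of 3, with a median of 48 bases.

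On scaffold 21284 the transcripts of muscle-2 ran on the plus strand from 3496037 to 3533866. The one drawn here held 52 exons, all 50 internal exons were multiples of 3 with a median of 39 bases, and 7 of its 8 microexons had 30 bases. None of these microexons was found in muscle-3 or liver, so they rest on 1 assembly.

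On scaffold 21873 a liver transcript on the minus strand, from 1064680 to 1097712, held 22 exons, all 8 of its microexons had 27 bases, and 5 of them followed each other directly. Its locus held 10 microexons in all, of which 9 were found in liver, 8 in muscle-2 and 1 in muscle-3. It is the locus with the most microexons, and the muscle assemblies differed in it.

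**Figure D5:**
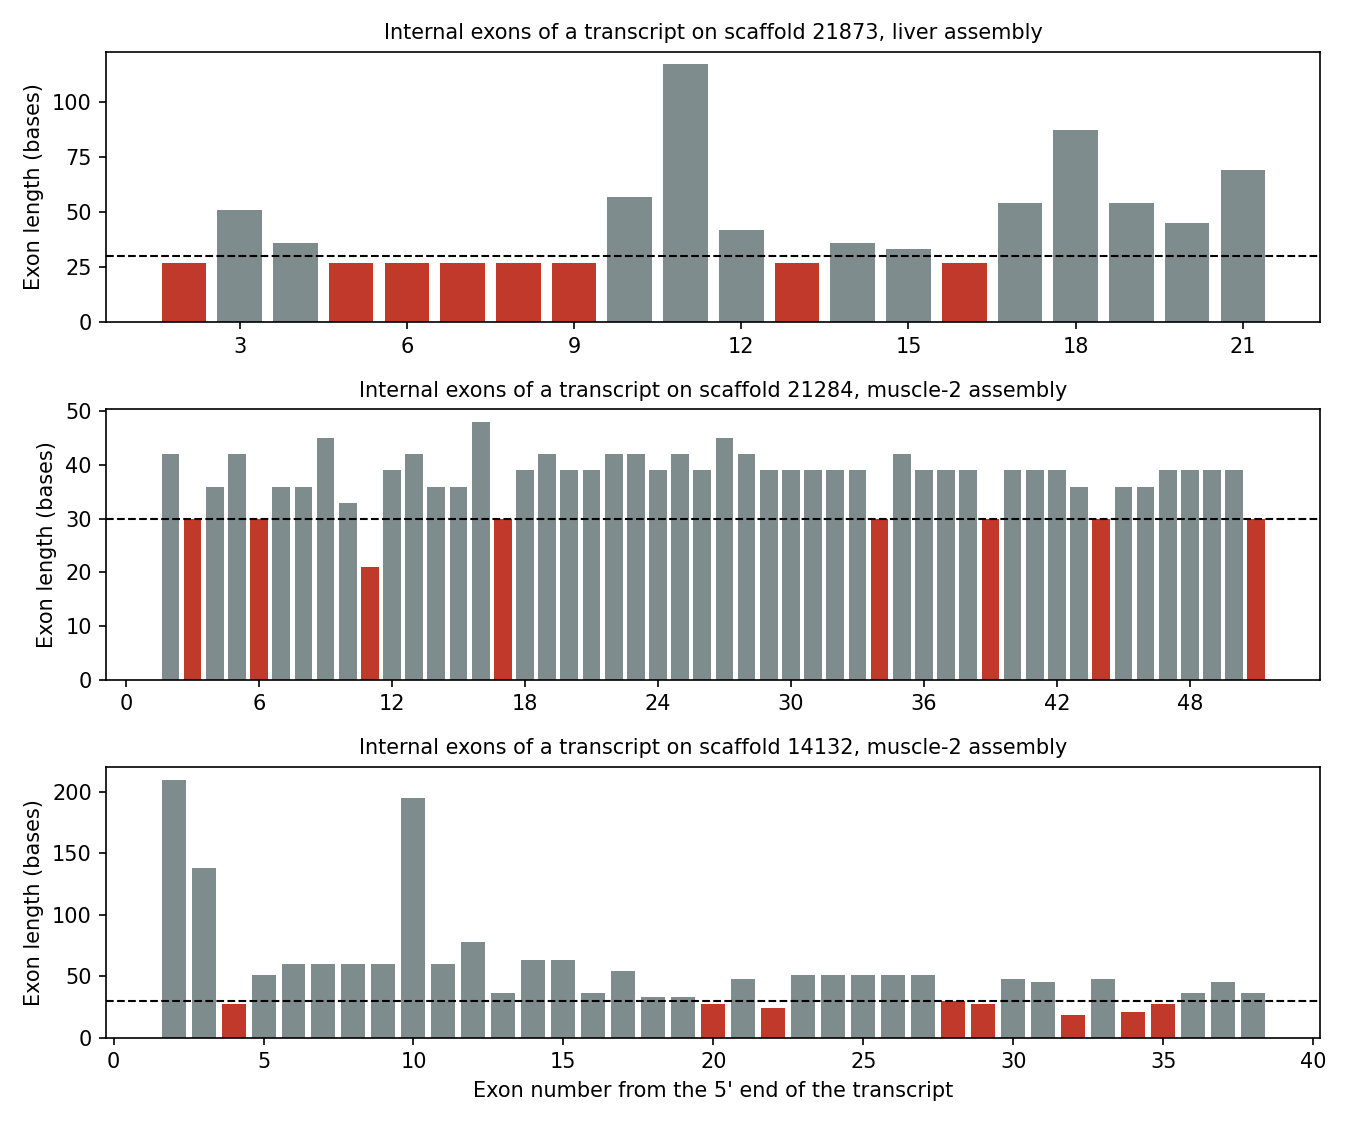
Length in bases (vertical axis) of each internal exon in order from the 5′ end (horizontal axis) for 1 transcript of each of the 3 loci with the most microexons per transcript; first and last exons are left out. Microexons are red, the dashed line marks 30 bases, and the liver transcript on scaffold 21873 has 5 exons of 27 bases in a row.

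Loci with many microexons did not all keep the frame. On scaffold 13612 a locus from 90779 to 144559 (plus strand) held 5 microexons, of which 1 was a multiple of 3, all 5 were spanned by some intron and none by a cassette intron. On scaffold 21838 a locus from 699320 to 751414 (plus strand) held 4, of 19 and 29 bases, of which 0 were multiples of 3. With the loci of 2 or more microexons left out, a choice made after the values were seen, 53.5% of the remaining 735 microexons were multiples of 3.

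Transcripts that carry a microexon were slightly less often the leading transcript of their locus. In liver 385 of 655 (58.8%) had the score of 1000, against 65.5% of all transcripts with 3 or more exons. In muscle-2 it was 571 of 1059 (53.9%, against 61.7%) and in muscle-3 527 of 944 (55.8%, against 63.3%). The direction was the same in all 3 assemblies. A transcript alone in its locus leads it by definition, and the transcripts compared were not matched for the number of transcripts per locus.

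Expression could be set beside 48 microexons on 37 of 1617 scaffolds with 1 listed gene. RPKM is the read count of a gene scaled by its length and by the size of the library, and its values are the authors'. The files link a microexon to a gene by scaffold alone, so the exon need not belong to the gene. Genes on scaffolds with a microexon had a median of 0.458 RPKM in liver (quartiles 0.0791 and 1.95) and 1.44 RPKM in muscle (0.880 and 4.83). On 457 scaffolds with an internal exon and no microexon the medians were 0.453 and 1.26 RPKM. The median of log2(liver RPKM + 1) minus log2(muscle RPKM + 1) was -0.68 (95% interval of the median -0.87 to -0.28) with a microexon and -0.43 (-0.50 to -0.35) without, and these intervals overlap. The size of this difference depended on the pseudocount, with -1.11 at 0.1 RPKM and -0.20 at 5 RPKM. In bulk samples, fewer cells of a type and less RNA per cell cannot be told apart.

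The genes at the extremes were set beside the assemblies that held the microexon. For evm.TU.scaffold18520.1 liver had 0.0175 RPKM against 50.7 RPKM of muscle, and the microexon of 26 bases on its scaffold was found in both muscle assemblies and not in liver. For evm.TU.scaffold15020.1 the values were 0.0152 and 21.8 RPKM, and the microexon of 28 bases there was likewise found in muscle alone. In the direction of liver, evm.TU.scaffold15364.1 had 8.71 and 0.112 RPKM and the microexon of 25 bases was found in liver and muscle-3, while evm.TU.scaffold1083.1 had 12.2 and 4.05 RPKM and the microexon of 23 bases was found in all 3 assemblies. For the genes low in liver, an exon missing from the liver assembly thus stood beside a liver RPKM near 0.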

How the data were processed

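Liver and muscle total RNA was made into libraries with an Illumina TruSeq kit, per the labels' protocols. The submitters' processing notes list TopHat, and the assembly rows carry the name Cufflinks; their versions and settings and the genome build were not given in the sources used. Deposited by the authors were RPKM per gene for both samples and assembled transcripts with a score of 100 to 1000 each, per the files' values. The 3 RPKM rows that are not genes were left out.

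Exon rows were sorted within each transcript, and internal exons and introns were compared by scaffold, both ends (1-based) and strand. Loci are overlapping spans of spliced transcripts on the same strand over all 3 assemblies. Shares have Wilson 95% intervals and medians binomial order-statistic intervals. RPKM differences used a pseudocount of 1, which understates differences of low genes; no test was made with 1 sample per tissue. The liver total is the smallest whole number for which those 3 rows, taken as having a length of 1 base, hold whole reads to within 1e-06. Totals were searched up to a fixed limit, and a muscle total above that limit would not have been found.

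Exons were named by rule: the 5 shortest found in all 3 assemblies, the first 10 cassette exons by number of assemblies and scaffold, the first 10 of each tissue pattern, the transcripts with the most microexons (1 per locus where tied), and the genes with the 2 largest RPKM differences in each direction. Members, lists and rules were chosen with earlier results of these data known. Alternatives were other length limits, minimum numbers of assemblies, longer flanking introns, leaving out each assembly, other definitions of skipping and presence, and other pseudocounts. The exon functions were tested on simulated assemblies. Python 3.11.15, numpy 2.4.6, scipy 1.17.1 and matplotlib 3.10.9 were used.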

Additional observations from a re-analysis of the deposited data

How the results depend on the processing

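Of 72 alternative values, 49 stayed within the interval of the value reported or, for counts, within 1.5 times of it. Some of the 49 left the values unchanged, such as those with stranded transcripts only. A change of direction was looked for in the RPKM differences alone, and 0 of them changed. With a limit of 51 bases there were 5991 exons, 46.6% multiples of 3 and 16.0% spanned, as longer exons enter. Found in at least 2 assemblies were 640 microexons, with median flanking introns of 732 and 748 bases and 21.9% spanned. Found in all 3 were 359, with 51% multiples of 3, an upstream intron of 766 bases and 16.4% spanned. The spanned share was 24.2% without the liver assembly, 21.5% without muscle-2 and 24.4% without muscle-3, where both the introns searched and the members are fewer. It was 17.1% with cassette introns alone and 16.3% with introns found in at least 2 assemblies. Counting any overlapping exon, presence was 60.2% in liver, 89.1% in muscle-2 and 80.5% in muscle-3, in the same order. With either muscle assembly in place of both, 128 microexons were included in muscle and skipped in liver, and with cassette introns 7 were included in liver and skipped in both muscle assemblies. The median RPKM difference was -1.11 with a pseudocount of 0.1 and -0.20 with one of 5. The alternative with loci of 1 microexon only was chosen after seeing the data. No paired analysis was possible because there is 1 sample per tissue. Depth per exon is unknown, so a missing exon or intron is not shown to be absent from the tissue.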

Other observations

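First and last exons of 3 to 30 bases, which have a splice site on 1 side only and were not counted as microexons, numbered 7114. Of these, 32.9% were multiples of 3 and 14 (0.197%) were found as first or last exon in all 3 assemblies, while 19 were internal in another transcript. Above the limit of 30 bases the exon length with the highest count up to 60 bases, noticed after the counts were seen, was 54 bases, with 744 internal exons against 310 of 53 bases and 342 of 55 bases. If the RPKM rows that are not genes have a length of 1 base, they held 27.2% of reads in liver and 35.0% in muscle. Among the totals searched, this assumption gave whole reads in liver, and no total gave whole reads in muscle.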
